A study of Mus musculus with 4 samples.

Results

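The GABA receptor subunits Gabra2, Gabra5, Gabrb1, Gabrb2, Gabbr1 and Gabbr2 and the scaffold gephyrin (Gphn) were followed as polyA sites in the CA1 neuropil of mouse hippocampus. They were chosen by gene name. Sites named for 6 of the 7 genes were analysed, 15 sites of the 9297 in the table and 37 of its 34672 tags, and Gabrb1 was not analysed here. The samples were 4 replicate cTag-PAPERCLIP libraries that form 1 group, so the comparisons below are between genes, sites and libraries and not between treatments.

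All libraries came from C57BL/6 mice of the genotype Camk2a-Cre x Pabpc1-cTag. Camk2a-Cre drives recombination in excitatory neurons, where it adds a GFP tag to Pabpc1, a protein bound to the poly(A) tails of mRNAs. Slices of hippocampus were crosslinked with ultraviolet light, the CA1 neuropil was cut away from the layer of cell bodies, and RNA bound to the tagged protein was purified through GFP. Each replicate pooled several adult mice. The sequenced fragments (tags) mark 3′ ends of mRNAs, so that a tag stands for an mRNA end whatever the length of the transcript, and levels of different genes are given as shares of the tags of a replicate. In such bulk samples fewer cells of a type and less RNA per cell cannot be told apart.

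GABA is the main inhibitory transmitter of the hippocampus. It opens GABA-A receptors, chloride channels assembled from alpha, beta and other subunits, and it activates GABA-B receptors, which are coupled to G proteins and assembled from the products of Gabbr1 and Gabbr2. Gephyrin is a scaffold that holds GABA-A and glycine receptors at inhibitory synapses, and it also acts in the synthesis of the molybdenum cofactor. Inhibitory synapses cover the dendrites of CA1 pyramidal neurons, which fill most of the neuropil.

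The 4 libraries held 16017, 6609, 5947 and 6099 tags at the listed sites. The deposited label describes these as neuropil tags that overlap Camk peaks, so shares are of these tags and not of all tags of a library. A count of 0 tags for a gene in a replicate allows a share of up to 0.0187%, 0.0454%, 0.0504% and 0.0492% (3 tags of the total) in replicates 1 to 4. Replicate 1 stood apart, with 32.9% of its tags at sites that resemble the short noncoding RNA Bc1, against 2.07% to 11.8% in the other replicates; none of the 15 sites studied here was of this kind. Of the pyramidal neuron markers 4 of 7 had tags by name (0.118% to 0.219% of a replicate), 53 of the 59 tags from Nrgn. By position, 215 tags lay in the annotated Camk2a gene under other names, and 6 of 7 markers had tags (0.387% to 1.21%). Markers of cells that should not carry the tag were also found. The oligodendrocyte list had tags for 5 of 5 genes (0.131% to 0.530% of a replicate), the astrocyte list for 6 of 6 (0.0820% to 0.262%), the blood list for 3 of 5 (0.0250% to 1.28%), the microglia list for 2 of 5 (0% to 0.0187%) and the interneuron list for 4 of 8 (0.0303% to 0.246%), with Gad2, Slc32a1, Vip and Reln at 0 by name and 22 of 33 tags named Npy. By position 5 of the tags lay in the annotated Npy gene, and the interneuron list ran from 0.0303% to 0.0656%. Their part in the tags of the GABA receptor genes was not tested.

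The 3′ ends themselves are shown first, since they place each tag on a transcript. For each gene the site nearest to its RefSeq 3′ end is shown, and for Gabrb2, Gabbr1 and Gphn also the most proximal site, which lies apart from that end. Each line gives the 30 bases of the GRCm38 genome from 15 bases before to 14 bases after the listed position, 5′ to 3′ on the strand of the gene, with the polyA signals AATAAA and ATTAAA in capitals.
Gabbr2, chr4:46662323-46662352, minus strand, 3′UTR: tgcaaatttgtttttatgAATAAAagggga
Gabra5, chr7:57407680-57407709, minus strand, 3′UTR: atgaatcttaaatgttcATTAAAaaaatgt
Gabrb2 distal, chr11:42632537-42632566, plus strand, RefSeq 3′UTR: cttgacctaagaaatataAATAAAagcaaa
Gabrb2 proximal, chr11:42630668-42630697, plus strand, RefSeq 3′UTR: aaaaaattaggaaaatggggaaaaatcctc
Gabbr1 distal, chr17:37074265-37074294, plus strand, 3′UTR: gaatctcAATAAAgcagttaacagtgtgac
Gabbr1 proximal, chr17:37049430-37049459, plus strand, 3′UTR of short transcripts: actaaactaaggtatttaaacagcacttat
Gabra2 distal, chr5:70958400-70958429, minus strand, 3′UTR: tacaatttatttaaAATAAAcaaaacatta
Gphn, chr12:78684724-78684753, plus strand, 3′UTR: taatgaaacttaatgAATAAAaaaaaaatc
Gphn intron, chr12:78350946-78350975, plus strand: gagctcagggaggacagaaacctcccgtgg

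A polyA signal was searched for on the strand of the gene, from 50 bases before to 50 bases after the listed position. It was found at 10 of the 15 sites (66.7%), AATAAA nearest at 9 and ATTAAA nearest at 1, against 78.1% of all sites of the table. The 10 sites with a signal carried 27 of the 37 tags. The 5 without it were the proximal Gabrb2 site, 2 Gabbr1 sites and 2 Gphn sites. Of the 15 sites, 10 lay in a 3′UTR of the GENCODE vM21 annotation (66.7%, against 76.5% of all sites), 4 outside every vM21 gene on their strand (26.7%, against 15.3%) and 1 in an intron (6.67%, against 5.3%).

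By the RefSeq annotation of the same build 11 of the 15 sites, with 29 tags, lay in a 3′UTR of their gene, 2 in an intron and 2 past its end. A run of at least 10 adenines in the 40 bases after the site, which is a place where a stretch of A stands in the genome itself, was found at 3 of the 15 sites, against 13.1% of all sites. At 2 of them, the proximal Gabrb2 site and the Gphn site past the end of the gene, no polyA signal was found (13.3%, against 6.9% of all sites). These shares are descriptions of few sites.

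**Figure D1:**
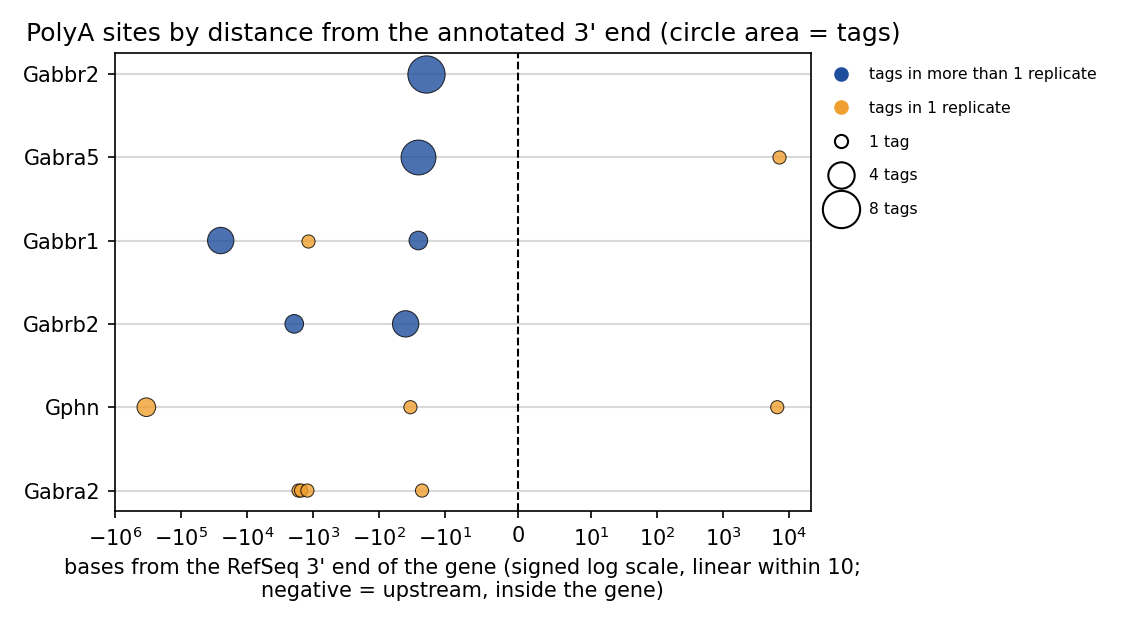
PolyA sites of each gene by their distance in bases from the RefSeq 3′ end of the gene, on a signed log axis that is linear within 10 bases (negative values lie upstream, inside the gene). The circle area gives the tags over the 4 replicates and the colour says whether tags came from more than 1 replicate; the sites of Gabbr2 and Gabra5 with 8 and 7 tags lie at the end of the gene, Gabbr1 has 4 tags at a site 24860 bases upstream, and Gphn has 2 tags at an intron site 333.8 kb upstream.

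In its own work the study used those neuropil sites that were seen in several experiments. Tags in more than 1 replicate were found at 6 of the 15 sites, against 34.2% of all sites, and these 6 carried 27 of the 37 tags. They were the single Gabbr2 site, the Gabra5 site at the end of its gene, both Gabrb2 sites and the proximal and distal Gabbr1 sites. Tags in at least 3 replicates were found at 4 sites (26.7%, against 14.3%), and in all 4 replicates at 1, that of Gabbr2 (6.67%, against 4.9%). A total of 8 sites had 1 tag. By gene name, each of the 6 genes had tags in more than 1 replicate (47.4% of all gene names) and 4 had tags in every replicate (7.76% of all gene names). The genes were chosen with earlier results of these data known, so nothing is read from these shares.

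The alpha subunits of the GABA-A receptor give the channel much of its pharmacology and placement. The product of Gabra5 sits largely outside synapses on hippocampal pyramidal dendrites, where it carries tonic inhibition. Gabra5 had 3, 1, 3 and 1 tags in replicates 1 to 4, a share of 0.0252% ± 0.0169 (SD, n = 4), or 0.0168% without replicate 3. Replicate 3 was highest at 0.0504% (95% Wilson interval 0.0172% to 0.148%) and replicate 2 lowest at 0.0151% (0.00267% to 0.0857%), with intervals that overlapped. Of the 8 tags, 7 lay at a site at chromosome 7, position 57407694, 22 bases before the vM21 end of the gene, where ATTAAA starts 2 bases after the listed position. The remaining tag, of replicate 2, lay at position 57400511, 7.16 kb past that end, beside an AATAAA and in no vM21 or RefSeq gene of that strand. Replicate 2 had no tag at the main site.

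Gabra2 encodes an alpha subunit found at the axon initial segment of pyramidal neurons and at other inhibitory synapses. It had 1, 1, 0 and 2 tags in replicates 1 to 4, a share of 0.0135% ± 0.0143 (SD, n = 4), the lowest mean of the 6 genes over all replicates. The mean was 0.00712% without replicate 4. Its 4 tags lay at 4 sites within 1.62 kb of its 3′UTR on chromosome 5 (minus strand), at positions 70960034, 70959898, 70959598 and 70958414, each with a tag in 1 replicate. The most distal of these lay 22 bases before the RefSeq end of the gene and 817 bases inside the vM21 end. A polyA signal was found within 50 bases of each. No Gabra2 site was seen in more than 1 replicate, so no 3′ end of this gene can be called the main one at this depth.

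Beta subunits form part of the GABA binding site and of the contact with scaffolds inside the cell. Gabrb2 had 3, 1, 1 and 1 tags, a share of 0.0168% ± 0.00149 (SD, n = 4). The shares of the replicates lay closer together than single tags allow to be resolved, since the Wilson interval of replicate 1 alone ran from 0.00637% to 0.0551%. Both Gabrb2 sites lay past the end of the vM21 gene on chromosome 11, by 1.66 kb at position 42630683 and by 3.52 kb at position 42632552. RefSeq carries the 3′UTR further, and the distal site lay 39 bases before the RefSeq end while the proximal site lay 1908 bases before it. The distal site, with AATAAA 3 bases after the listed position, had 2, 1, 0 and 1 tags. The proximal site, with no signal and a run of 15 adenines downstream, had 1, 0, 1 and 0 tags. The distal site was higher in 3 of 4 replicates, by 0.00524 ± 0.0154 percentage points (SD), a difference smaller than its spread (exact sign-flip permutation test, two-sided, p = 0.625, where 4 replicates cannot go below 0.125). It was 0.0126 without replicate 3, 0.00194 without replicate 2 and 0.00152 without replicate 4.

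The GABA-B receptor needs both of its subunits, of which the product of Gabbr1 binds GABA and that of Gabbr2 couples to the G protein. Gabbr2 had 3, 1, 3 and 1 tags, a share of 0.0252% ± 0.0169 (SD, n = 4), the same tags in each replicate as Gabra5 and likewise 0.0168% without replicate 3. All 8 lay at chromosome 4, position 46662337 (minus strand), 32 bases before the vM21 end and 19 bases before the RefSeq end of the gene. It was the only site among the 15 with tags in each of the 4 replicates.

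Gabbr1 had 3, 2, 1 and 1 tags, a share of 0.0206% ± 0.00655 (SD, n = 4), highest in replicate 2 at 0.0303% (95% Wilson interval 0.00830% to 0.110%). Its tags were divided between distant 3′ ends on chromosome 17. The proximal site at position 37049445 had 2, 1, 0 and 1 tags. It lay 22 bases before the end of the vM21 transcripts Gabbr1-202 and Gabbr1-209, which hold 3 and 4 exons and a coding sequence of 229 codons. RefSeq places the same position in an intron, 24860 bases before the end of the gene. The distal site at position 37074280 had 0, 1, 1 and 0 tags and lay 25 bases before the RefSeq end, in the 3′UTR of the vM21 transcripts Gabbr1-201 and Gabbr1-203, with coding sequences of 960 and 844 codons, and of Gabbr1-205. Another site at position 37073129, in the same 3′UTR, had 1 tag in replicate 1. No AATAAA or ATTAAA was found near the proximal site. The proximal site was higher in 2 replicates and the distal site in 1, with distal minus proximal at -0.00302 ± 0.0150 percentage points (SD, n = 4), a difference with p = 1 (exact sign-flip permutation test). The mean turned above 0 without replicate 1 (0.00014) and without replicate 4 (0.00144).

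Gphn had 0, 0, 3 and 1 tags in replicates 1 to 4, a share of 0.0167% ± 0.0238 (SD, n = 4). Without replicate 3 the mean was 0.00547%, below that of Gabra2 over the same replicates (0.0181%). Replicate 3 stood at 0.0504% (95% Wilson interval 0.0172% to 0.148%), and the 0 tags of replicate 1 allow up to 0.0187%. No Gphn site was seen in more than 1 replicate. Position 78684739 on chromosome 12 (plus strand), 33 bases before the end of the gene in vM21 and RefSeq and with AATAAA starting at the listed position, had 1 tag in replicate 4. The 3 tags of replicate 3 lay elsewhere, 2 of them in an intron at position 78350961, 333.8 kb before the end, with no signal nearby, and 1 at position 78691426, 6.65 kb past the end, with no signal and a run of 34 adenines downstream. The tags named Gphn therefore held 1 tag at the annotated 3′ end. The interneuron marker list was also higher in replicates 3 and 4 (0.135% and 0.246%) than in replicates 1 and 2 (0.0499% and 0.0303%) when counted by name. Counted by position it stood at 0.0562%, 0.0303%, 0.0504% and 0.0656% in replicates 1 to 4, with replicate 3 below replicate 1. Its part in the Gphn tags was not tested.

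**Figure D2:**
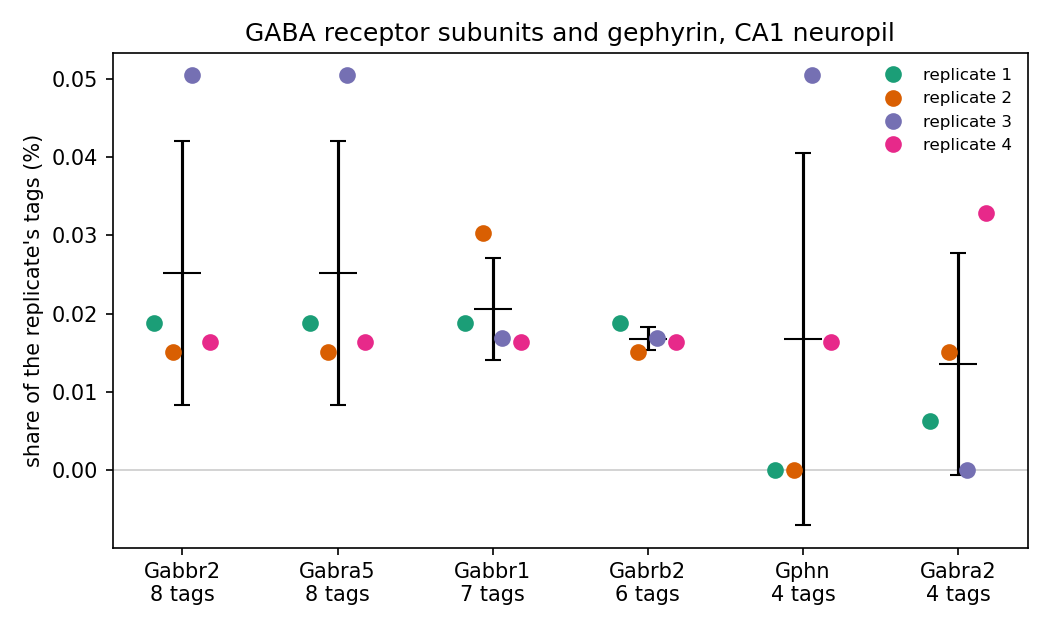
Share of the tags of each replicate (%) at all sites of a gene, for the 6 genes in order of their mean. Points are the 4 replicates, the horizontal mark is the mean and the bar is the SD (n = 4); replicate 3 is highest for Gabbr2, Gabra5 and Gphn at 0.0504%, which is 3 tags, and the ranges of the genes overlap.

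In order of mean share the genes ran Gabbr2 and Gabra5 (equal), Gabbr1, Gabrb2, Gphn and Gabra2. This order turned with single replicates left out. Gabra5 minus Gabbr1 was -0.00504 percentage points and Gphn minus Gabra2 -0.0126 without replicate 3, and Gabrb2 minus Gphn was -0.00617 without replicate 1 and -0.00497 without replicate 2. None of the 5 neighbouring pairs differed beyond its spread (exact sign-flip permutation test over replicates, p = 1 and adjusted p = 1 in each). The largest of these differences, between Gabra5 and Gabbr1, was 0.00462 ± 0.0206 percentage points (SD). Over the 4 replicates together the counts ran from 4 tags (95% exact Poisson interval 1.09 to 10.2) for Gabra2 and Gphn to 8 (3.45 to 15.8) for Gabra5 and Gabbr2, so the depth could not separate the genes by level. A count of at least 8 was reached by 728 of the 7202 gene names (10.1%) and a count of at least 4 by 1877 (26.1%), where the median gene name had 2 tags.

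Together the 6 genes had 13, 6, 11 and 7 tags, or 0.118% ± 0.0469 of a replicate (SD, n = 4), lowest in replicate 1 at 0.0812% (95% Wilson interval 0.0474% to 0.139%) and highest in replicate 3 at 0.185% (0.103% to 0.331%). With the Bc1-like tags left out of the totals the shares were 0.121%, 0.103%, 0.190% and 0.117%, and replicate 2 was lowest. Replicate 3 also had the highest share of the blood markers (1.28%), whose part in this was not tested. The ion channel subunits Gabra2, Gabra5 and Gabrb2 held 0.0555% ± 0.0127 and the GABA-B subunits 0.0457% ± 0.0153. The channel subunits were higher in replicates 1 and 4 and equal in replicates 2 and 3, a mean difference of 0.00976 ± 0.0156 percentage points (exact sign-flip permutation test, p = 0.5), and of 0.00208 without replicate 4. The sign turned when only sites in vM21 3′UTRs were counted (-0.0151) and with vM21 names for the sites (-0.0108), both of which drop Gabrb2. It also turned with sites seen in more than 1 replicate (-0.00810), a rule that drops Gabra2.

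The remaining receptor subunits show where these genes stand in their family. Of 19 listed GABA-A subunit genes, Gabrb1 included, 9 had tags, 42 in all, with 8 genes in more than 1 replicate (47.4% of all gene names) and 2, Gabra5 and Gabrb2, in all 4 (7.76% of all gene names). Gabra4 and Gabrd, found together in receptors outside synapses, had 1, 0, 0 and 1 tags each. The remaining genes of the list gave no tags by name. By position, the annotated gene of 1 of these, the alpha subunit gene Gabra3, held 1, 0, 2 and 1 tags that carry another name. Gabra3 is named here after its values were seen. With both GABA-B subunits the list held 57 tags, or 0.167% ± 0.0442 of a replicate (SD, n = 4).

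Receptors for glutamate, the excitatory transmitter, were set beside these. Their list of 26 subunit genes had tags for 16, 85 tags in all, with 11 genes in more than 1 replicate (47.4% of all gene names) and 2, Gria3 and Grin1, in all 4 (7.76%). The most tagged was the AMPA receptor subunit Gria3 with 6, 2, 1 and 4 tags. The glutamate receptor list held 0.272% ± 0.119 of a replicate (SD, n = 4). It was above the GABA receptor list in 4 of 4 replicates, at 1.15, 1.43, 1.92 and 1.83 times its share in replicates 1 to 4. GABA minus glutamate receptor shares came to -0.105 ± 0.0813 percentage points (exact sign-flip permutation test, two-sided, p = 0.125, the smallest that 4 replicates allow). With only sites seen in more than 1 replicate the glutamate receptor list was higher in 3 of 4 replicates and lower in replicate 3, a difference of -0.0545 ± 0.0709 (exact sign-flip permutation test, p = 0.375). The number of genes differs between the lists, so the sums do not compare the level of single subunits.

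**Figure D3:**
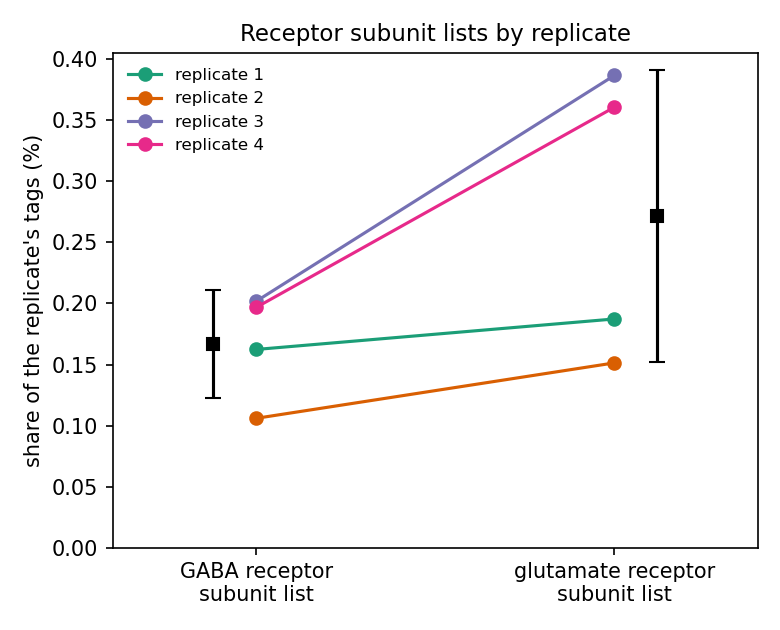
Summed share of the tags of a replicate (%) for the list of 21 GABA receptor subunit genes and the list of 26 glutamate receptor subunit genes. Lines join the values of a replicate, squares and bars are the mean and SD (n = 4), and every replicate lies higher for the glutamate receptor list, from 1.15 to 1.92 times.

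Among proteins of the inhibitory postsynapse, gephyrin included, 6 of 9 listed genes had tags, all in more than 1 replicate (47.4% of all gene names), with a median of 6 tags against 2 over all gene names. Iqsec3, an Arf exchange factor that binds gephyrin, had 3, 4, 0 and 1 tags. The adhesion protein gene Nlgn2 had 0, 0, 4 and 3 tags, present in the same replicates as Gphn. Slitrk3 and Insyn1 had 5 tags each. Of the 7 genes for GABA-B auxiliary proteins and their potassium channels, 5 had tags, and the channel subunit gene Kcnj3 had the most, with 3, 2, 1 and 0.

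The genes whose shares were spread over the replicates most like those of Gabra5 and Gabbr2 were Sparcl1, Sirpa, Hpcal4, Uchl1 and Snhg14, among the 211 genes with at least 20 tags. Their total variation distance (0 for the same profile over the 4 libraries, 1 for no overlap) ran from 0.0800 for Sparcl1 to 0.110 for Snhg14, against a median of 0.414. Over 4 libraries, and with 8 tags behind each of Gabra5 and Gabbr2, this is a description only.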

How the data were processed

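The authors deposited raw tag counts, whole numbers with no normalization, for polyA sites, each given by position, strand and name, in 4 columns that match the 4 sample titles. Per the submitters' processing notes cutadapt, Novoalign and the mm10 build were used, and the study's methods name the CTK package for calling sites; versions and the handling of multiply mapping or duplicate tags are not given in the sources used here, so that a count may hold amplified copies and intervals cover counting error only.

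Shares of each replicate total, their mean and SD, 95% Wilson intervals and exact Poisson intervals were computed with Python 3.11.15 and SciPy 1.17.1. Sites were placed on GRCm38 (mm10) with GENCODE vM21 and RefSeq, and 0 sites lay past a chromosome end. A site was called like Bc1 when at least 10 words of 12 bases from the first 74 bases of Bc1 lay within 75 bases of it. Exact sign-flip permutation tests ran over the 4 replicates, with Benjamini-Hochberg adjustment over neighbouring pairs. The labels do not say that replicates were separate animals, so p-values measure the spread between these libraries. The alternatives were totals of 3′UTR sites or without Bc1-like sites, TMM library sizes (edgeR 4.0.16), sites in more than 1 replicate, annotated names, other call rules and leaving out each replicate. Intervals, shares and the permutation test were checked on simulated data. The genes, lists and tests were chosen with earlier results of these data known. Named were the genes studied, list genes with at least 5 tags, major GABA-A subunits, and the 5 genes most like the most tagged. Some genes that this rule names are not reported here.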

Additional observations from a re-analysis of the deposited data

Results flagged for a closer look

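Of 32 sets of 4 replicate shares, 4 had a replicate whose gap to its nearest neighbour exceeded the critical part of the range for 4 samples. For Gabra5 and for Gabbr2 this was replicate 3, at 0.0504% against 0.0151% to 0.0187%, a gap of 0.898 of the range, and the single Gabbr2 site gave the same value because it holds all tags of that gene. For Gabbr1 it was replicate 2, at 0.0303% against 0.0164% to 0.0187%, a gap of 0.832 of the range. These gaps rest on 3 tags in replicate 3 and 2 tags in replicate 2.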

How the results depend on the processing

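The RefSeq names were added after seeing the data. The summed share of the GABA receptor genes and gephyrin ran from 0.0932% to 0.133% over all alternatives, and the GABA minus glutamate receptor mean difference was below 0 in all of them (-0.151 to -0.0545 percentage points), but with sites in more than 1 replicate it was so in 3 of 4 replicates (p = 0.375, exact sign-flip permutation test). Channel minus GABA-B subunits turned to -0.0151 with 3′UTR sites, -0.00810 with sites in more than 1 replicate and -0.0108 with vM21 names. The 3′UTR sites and the vM21 names lose both Gabrb2 sites by construction. Likewise, sites in more than 1 replicate lose every Gabra2 site, the Gabra5 site past its gene and the Gabbr1 site at position 37073129. Leaving out single replicates gave -0.00504 to 0.0112 for Gabra5 minus Gabbr1, -0.00617 to 0.0113 for Gabrb2 minus Gphn, -0.0126 to 0.00969 for Gphn minus Gabra2, -0.00963 to 0.00144 for distal minus proximal Gabbr1, 0.00152 to 0.0126 for distal minus proximal Gabrb2 and 0.00208 to 0.0130 for channel minus GABA-B subunits. Of the 15 sites, 1 had tags in all 4 replicates (4.9% of all sites) and 2 had at least 2 tags in each of more than 1 (10.9% of all sites). Requiring tags in all 4 replicates left 2 GABA-A, 2 GABA-B, 0 GABA-B auxiliary, 1 inhibitory postsynapse, 2 receptor trafficking, 1 GABA synthesis, 0 glycine receptor and 2 glutamate receptor genes (7.76% of all gene names). No paired analysis was possible because there was 1 group, so that no samples of different groups share a replicate number; the differences between genes, sites and lists were taken within replicates. With 0 to 3 tags per gene and replicate, depth limits the comparisons between single genes, and the receptor lists rest on 7 to 30 tags per replicate.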

Other observations

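Genes that move GABA-A receptors to and from the membrane had tags for 11 of 12 listed names, 7 of them in more than 1 replicate (47.4% of all gene names). Gabarapl1, a relative of the receptor-associated protein Gabarap, had 5, 2, 1 and 2 tags, and Nsf, the ATPase that recycles membrane fusion complexes, had 5, 2, 2 and 1. Gabarap had 6 tags and Hap1, a huntingtin-associated transport protein, 5. Of 6 genes for GABA synthesis, release and uptake, 4 had tags. Gad1, which makes GABA and is also on the interneuron list, had 3, 1, 2 and 2, and Abat, which breaks GABA down, had 2, 0, 2 and 1. Of 5 glycine receptor genes 2 had tags. Glrb, the glycine receptor subunit that binds gephyrin, had 3, 1, 0 and 2 tags at 1 site.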
